A study of Mus musculus with 13 samples.

Results

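A set of 7194 replication origins of mouse embryonic stem (ES) cells was examined, all of which were mapped in control cells and had no overlapping peak in cells treated with PhenDC3, a small molecule that binds and stabilizes G-quadruplexes. The origins were selected on peak presence alone. Peaks of 5 lists were joined where they shared at least 1 bp, and a merged region was taken when it held a peak of control replicate 3, a peak of exactly 1 of control replicates 1 and 2, and no peak of either PhenDC3 list. They made up 2.91% of 246934 merged regions and 7.08% of the 101678 regions called origins, meaning those found in at least 2 control lists or in both PhenDC3 lists. Of the 18745 origins with control peaks alone they were 38.4%, and the rest were held by all 3 controls (3711) or by control replicates 1 and 2 (7840). Control replicate 1 was the second supporting list for 3775 of them (pair 1+3) and control replicate 2 for 3419 (pair 2+3). They are called suppressed origins below for short, although the rule recorded only that no peak was called, and a weak peak that missed the caller's threshold cannot be told apart from an origin that did not fire.

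Short nascent strand sequencing (SNS-seq) was performed on 3 control and 2 PhenDC3 samples, and mRNA sequencing on 3 control and 3 PhenDC3 samples. All samples were asynchronous CGR8 cells, a mouse ES cell line, grown on gelatin in serum medium with LIF. Both conditions received 0.5% DMSO for 48 h, and in PhenDC3 cells it carried 10 μM of the compound. Peaks of each SNS-seq replicate had been called against RNase-treated nascent strands of the same condition, and those libraries were not analysed here. The methods describe the control SNS-seq replicates as biological, whereas the labels of the RNA-seq replicates do not say whether they were separate cultures, so spread between those may be technical. The peak lists hold no read counts, so their depth is unknown. The RNA-seq libraries held 22232014 to 29486502 counts. All 10 ES cell markers examined, among them Pou5f1 and Nanog, reached 1 CPM, a count scaled to library size, in every sample. Their summed level was 7647 to 8505 CPM in controls and 8611 to 9993 CPM with PhenDC3, of which Dppa5a gave 2023 to 2609 and 2731 to 4046 CPM. Single markers moved in both directions, with Pou5f1 at 1407 to 1618 CPM in controls and 1044 to 1126 CPM with PhenDC3, and Nanog at 468 to 492 and 1040 to 1184 CPM. Summed markers of primitive endoderm were 282 to 353 CPM in controls and 486 to 618 CPM with PhenDC3, and those of trophoblast 61.5 to 80.6 and 136 to 172 CPM. Lama1 alone gave 195 to 240 and 372 to 496 CPM of the former, and Krt8 and Tfap2c most of the latter. Gata4, Gata6, Sox17, Foxa2, Pdgfra and Gata3 were also higher without overlap. Dab2, Sox7 and Hand1 overlapped between conditions, Cdx2 and Elf5 stayed below 1 CPM, and Ascl2 was lower, at 1.56 to 1.91 and 0.791 to 1.45 CPM. The part of these changes in the results below was not tested.

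Replication starts at many origins, each of which produces short RNA-primed nascent strands that can be purified because the RNA primer protects them from a 5′ exonuclease. In mouse cells many origins lie close to a G-rich element able to fold into a G-quadruplex (G4), a stack of planar guanine tetrads, and this element usually sits upstream of the initiation site. Another abundant feature of the mouse genome is the SINE families B1 and B2, short retrotransposons copied by RNA polymerase III that are frequent in gene-rich DNA.

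The 3 strongest suppressed origins without a predicted G4 within 500 bp of the centre show what an origin of this kind looks like at the sequence level. Strength was the lower of the 2 percentiles that the −log10 p of the peak reached in its 2 control lists. Each sequence is 200 bases of the mm10 plus strand centred on the summit of control replicate 3. None has a capital, because capitals mark a predicted G4.
Spata13 (intergenic), chr14:60572399-60572598, plus strand, pair 2+3: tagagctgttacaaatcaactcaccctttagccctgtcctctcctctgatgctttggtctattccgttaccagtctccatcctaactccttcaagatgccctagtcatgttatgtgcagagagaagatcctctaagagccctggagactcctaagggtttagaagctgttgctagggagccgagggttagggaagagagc
Msi2 (intron), chr11:88612756-88612955, plus strand, pair 2+3: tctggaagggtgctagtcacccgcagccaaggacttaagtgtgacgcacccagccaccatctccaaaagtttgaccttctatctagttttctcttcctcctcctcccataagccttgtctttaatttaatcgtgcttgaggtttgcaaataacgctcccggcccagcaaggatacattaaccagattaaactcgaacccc
Ppfibp2 (intron), chr7:107698633-107698832, plus strand, pair 2+3: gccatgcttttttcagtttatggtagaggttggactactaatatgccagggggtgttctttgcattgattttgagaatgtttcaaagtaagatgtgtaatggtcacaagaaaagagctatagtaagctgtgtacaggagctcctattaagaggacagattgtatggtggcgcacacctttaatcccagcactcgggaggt
The Ppfibp2 sequence holds the word aatcccag, which is discussed below as a word of B1 elements. For comparison, 2 of the 3 strongest suppressed origins that carry a predicted G4 inside such a window are shown next, again with the G4 (G4Hunter, 25-base windows, score of at least 2, either strand) in capitals.
Flnc (intergenic), chr6:29432876-29433075, plus strand, pair 2+3: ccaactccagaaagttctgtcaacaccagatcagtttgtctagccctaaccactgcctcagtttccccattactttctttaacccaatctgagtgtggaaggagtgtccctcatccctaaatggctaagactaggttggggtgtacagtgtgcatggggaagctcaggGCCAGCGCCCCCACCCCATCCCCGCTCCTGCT
Gask1b (intron), chr3:79922678-79922877, plus strand, pair 1+3: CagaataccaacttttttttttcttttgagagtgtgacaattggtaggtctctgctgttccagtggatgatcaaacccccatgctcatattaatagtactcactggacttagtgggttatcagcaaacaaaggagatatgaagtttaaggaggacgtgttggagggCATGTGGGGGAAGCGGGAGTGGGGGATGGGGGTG
In the Gask1b sequence the capitals are G-rich, and in the Flnc sequence they are C-rich because the G4 lies on the minus strand. The single capital that opens the Gask1b sequence is the end of another predicted G4 that begins outside the window.

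The strongest suppressed origin was in an intron of Mllt10, a cofactor of histone methylation, at chr2:18086928-18087384. Its fold enrichment over the RNase-treated background was 13.5 in control replicate 2 and 16.8 in replicate 3 at percentiles 97.3 and 97.1 of these lists. It had 1 predicted G4 and a B1 word within 500 bp, and the nearest PhenDC3 peak was 4430 bp away. The next was in an intron of Cpeb1, which binds mRNA and controls its polyadenylation, at chr7:81363093-81363508, with 15.04-fold enrichment in replicate 1 and 15.6-fold in replicate 3. The other 6 of the 8 strongest were an intergenic region near E330035G20Rik, one near Spata13 (a guanine nucleotide exchange factor), an intron of Entpd1 (the ectonucleotidase CD39), an intron of Msi2 (an RNA-binding protein), an intron of Ppfibp2 and an intergenic region near Marco (a scavenger receptor). Across these 8 the enrichment in replicate 3 ran from 13.3 to 16.9, and the nearest PhenDC3 peak lay 3347 to 12026 bp away. A predicted G4 was within 500 bp of 4 of the 8. All 3 origins of the pair 1+3 had one, and 1 of the 5 origins of the pair 2+3.

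Most suppressed origins were weaker than these. In the full set the median fold enrichment was 5.40 in control replicate 1 (quartiles 4.23 and 6.95), 4.85 in replicate 2 (3.94 and 6.02) and 5.30 in replicate 3 (4.28 and 6.51). The median percentile of −log10 p was 46.4, 39.3 and 37.9 in those lists, and 1.49% of their peaks in replicate 3 were above the 90th percentile of that list. The 12325 origins with the same control peaks that also had a PhenDC3 peak (kept origins) had median percentiles of 56.3, 44.2 and 48.6, and the 22677 constitutive origins, found in all 5 lists, had 80.1, 71.2 and 74.8. The merged regions of suppressed origins had a median width of 232 bp, beside 326 bp for kept and 487 bp for constitutive origins. That width depends on how many lists were joined, which the rule sets. Within control replicates 1, 2 and 3 taken singly, the median peak width was 211, 205 and 140 bp at suppressed origins. It was 247, 217 and 170 bp at kept and 382, 332 and 263 bp at constitutive origins. The summits of both supporting control peaks lay a median of 30 bp apart and 88.8% were within 100 bp. These values come from the lists that chose the origins and are descriptions.

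The boundary of the rule was not sharp. The median distance from a suppressed origin to the nearest PhenDC3 peak was 2256 bp, 1338 bp for the pair 1+3 and 3195 bp for the pair 2+3. A PhenDC3 peak lay within 500 bp of 1765 of them (24.5%), and within 20 bp of 30. These 30, just inside the rule, had a median enrichment of 4.92 in control replicate 3, and the 14 kept origins whose PhenDC3 peak shared at most 20 bp with a control peak, just outside it, had 4.67. At the other end 2309 suppressed origins (32.1%) had no PhenDC3 peak within 5000 bp.

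Predicted G4s were less frequent at suppressed origins than at origins that kept their peaks. A G4 was within 500 bp of the centre at 2714 of 7194 (37.7%, 95% Wilson interval 36.6 to 38.9), beside 72.9% of kept (72.1 to 73.7), 77.4% of constitutive and 70.8% of all origins. Other origins with control peaks alone were closer to them, at 45.6% for those of control replicates 1 and 2 (a difference of −7.85 points, −9.42 to −6.27) and 52.8% for those of all 3 controls (−15.1 points, −17.1 to −13.2). The difference from kept origins was −35.2 percentage points (Newcombe interval −36.6 to −33.8) and had the same sign on all 20 chromosomes with at least 20 suppressed origins. These intervals cover counting error only, since regions are not replicates, and the G4 prediction used the genome sequence alone. The median GC content within 500 bp was 47.1% at suppressed and 47.5% at kept origins. Within each of 6 bins of GC content the suppressed origins were lower in G4 share, by 12.9 to 44.3 points, and within each of 5 bins of strength by 19.9 to 37.6 points. With only the upper part of each list by −log10 p, the suppressed origins numbered 4471, 55.9% of them had a G4, and the difference from kept origins was −20.7 points.

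The supporting pairs differed from each other. Of the pair 1+3, 49.1% had a G4 (47.5 to 50.7), and of the pair 2+3, 25.2% (23.8 to 26.7), a difference of 23.9 points (21.7 to 26.0) that was positive on all 20 chromosomes. Among kept origins the same pairs had 75.3% and 69.6%, a difference of 5.70 points (4.10 to 7.31). The G4 share of the pair 1+3 was 45.1% in the lowest bin of strength (0 to 10) and 64.2% in the highest (75 to 100), where it had 106 origins. In the pair 2+3 it was 26.7% in the lowest bin and 15.5% in the highest, with 110 origins. Kept origins of the pair 2+3 also had a low share in the highest bin, 35.2%, beside 77.2% in the lowest. In the bin of GC content above 56% the pairs were in the opposite order, 57.5% for the pair 1+3 and 60.4% for the pair 2+3. Control replicates 1 and 2 carry different read-trimming tags in their peak names. Lists with the same number in both conditions also occurred together. Of kept origins of the pair 1+3, 84.3% had a peak of PhenDC3 replicate 1 and 70.1% one of replicate 2, and of those of the pair 2+3, 50.1% and 95.4%. The part of either in the difference between pairs was not tested.

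**Figure D1:**
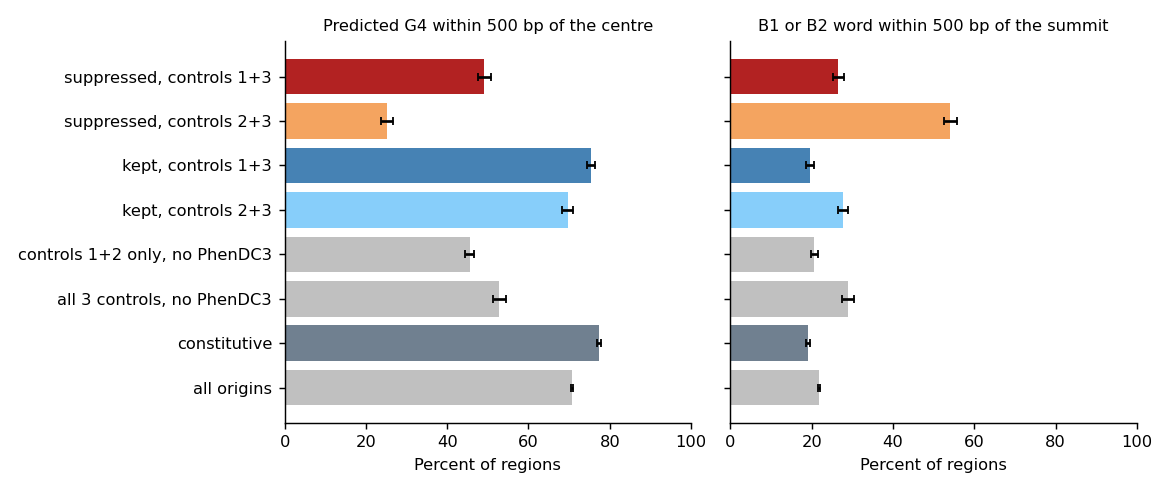
Percent of regions with a predicted G4 within 500 bp of the centre (left) and with a B1 or B2 word within 500 bp of the summit (right) for suppressed, kept and other classes of origins; bars are shares and lines 95% Wilson intervals, which cover counting error only. Suppressed origins of control replicates 2 and 3 have the lowest G4 share, 25.2%, and the highest word share, 54.1%.

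The position of the G4 also differed. Distances were read from the summit along the G-rich strand, so that a negative distance places the G4 5′ of the summit. At constitutive origins the most frequent 50-bp bin was centred at −225 bp and held a G4 at 14.6% of origins, while bins 100 to 400 bp on the other side averaged 1.93%. At suppressed origins of the pair 1+3 the peak was lower and farther away, 7.60% at −575 bp, beside 11.8% at −325 bp for kept origins of the same pair. At those of the pair 2+3 the profile was nearly flat. Its highest bin, at −225 bp, held 2.25%, the bins 100 to 400 bp before the summit averaged 2.01%, and those 600 to 1000 bp before averaged 1.43%. Widening the distance from 500 to 1000 bp raised the G4 share of the pair 1+3 to 78.4% and that of the pair 2+3 to 41.6%. At that distance 60.9% of all suppressed origins had a G4. The difference was then −22.8 points from kept and −23.3 points from constitutive origins, so its size depends on the distance used.

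**Figure D2:**
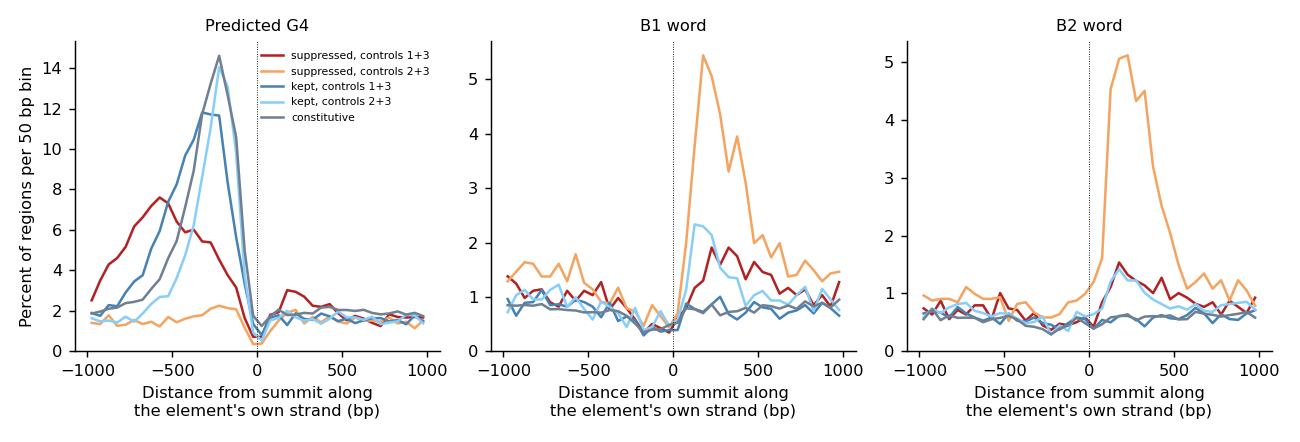
Percent of regions that hold a predicted G4 (left), a B1 word (middle) or a B2 word (right) in each 50-bp bin of distance from the summit, read along the strand of the element, for suppressed, kept and constitutive origins. G4s sit before the summit of kept and constitutive origins, and the B1 and B2 words sit after the summit of suppressed origins of control replicates 2 and 3, with maxima of 5.44% and 5.12%.

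Words of SINEs were more frequent next to the summit of suppressed origins. They were searched for after the most frequent short words at these origins had been seen. The words searched on both strands were AATCCCAG, found in B1, and AGATGGCT, found in B2. An 8-letter word is not an annotation of the element, and copies of B2 can also hold a word like that of B1. At least 1 of the words was within 500 bp of the summit at 39.6% of suppressed origins (38.5 to 40.8), 22.97% of kept, 19.0% of constitutive and 21.9% of all origins. The excess over kept origins was 16.7 points (15.3 to 18.01) and was positive on all 20 chromosomes. Because the words were picked at these same origins, the interval and the chromosome count describe the excess and do not test it. The excess was 7.81 points without control replicate 2 and 8.003 points with the upper part of each list by −log10 p. The pair 2+3 stood at 54.1% (52.4 to 55.8) and the pair 1+3 at 26.5% (25.1 to 27.9). Kept origins of the same pairs had 27.7% and 19.6%. Both words contributed alike in the pair 2+3, where 34.9% had the B1 word, 34.8% the B2 word and 15.6% both. Near these origins 89.2% of the B1 words and 87.7% of the B2 words lay in sequence that the reference marks as repeat. Above 56% GC the order was the opposite, 10.5% of suppressed and 15.1% of kept origins.

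The words lay mainly on one side of the summit. Read along the strand of the element, bins 100 to 400 bp after the summit held the B1 word at an average of 4.31% of origins of the pair 2+3, and the same distance before it 0.814%. For the B2 word the averages were 4.46% and 0.697%. At constitutive origins they were 0.742% and 0.567% for B1 and 0.595% and 0.396% for B2. The same side was favoured, at lower levels, by kept origins of the pair 2+3 (1.83% after and 0.5998% before for B1, 1.16% and 0.447% for B2) and by suppressed origins of the pair 1+3 (1.60% and 0.662% for B1, 1.22% and 0.490% for B2). An example of each is shown, chosen after the values were seen as the strongest G4-free origin of the pair 2+3 with the word in repeat-marked sequence 100 to 230 bp after the summit and no exon in the window. Each runs 300 bases from 50 bases before the summit, along the strand of the element, with the word in capitals.
Tmem266 (intron), chr9:55373739-55374038, minus strand, pair 2+3: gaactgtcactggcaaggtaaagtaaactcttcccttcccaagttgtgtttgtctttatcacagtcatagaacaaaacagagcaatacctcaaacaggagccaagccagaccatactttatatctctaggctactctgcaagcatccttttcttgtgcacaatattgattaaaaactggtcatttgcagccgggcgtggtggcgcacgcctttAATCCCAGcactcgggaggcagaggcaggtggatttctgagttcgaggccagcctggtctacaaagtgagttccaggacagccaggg
Amd1 (intergenic), chr10:40307090-40307389, minus strand, pair 2+3: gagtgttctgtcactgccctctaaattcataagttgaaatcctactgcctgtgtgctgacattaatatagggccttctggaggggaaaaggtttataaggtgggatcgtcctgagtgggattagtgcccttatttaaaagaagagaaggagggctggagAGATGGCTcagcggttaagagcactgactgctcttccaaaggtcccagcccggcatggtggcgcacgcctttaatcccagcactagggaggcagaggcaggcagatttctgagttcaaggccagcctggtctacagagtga
The middle of the B1 word in the Tmem266 sequence was 167 bases after the summit, and that of the B2 word in the Amd1 sequence 113 bases. The Amd1 sequence also holds the B1 word, in lower case after the B2 word, so it does not show the B2 word alone. Fold enrichment of the first origin was 7.63 in control replicate 2 and 12.1 in replicate 3, and that of the second 8.11 and 13.5.

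Peaks held by a single list showed where the words occurred beyond the rule. Of regions with a peak in control replicate 2 alone 39.1% had a word, of those in control replicate 3 alone 33.2%, and of those in control replicate 1 alone 26.8%. The corresponding shares were 20.5% and 18.3% for PhenDC3 replicates 1 and 2. The G4 shares of these single-list regions were 36.3%, 32.0% and 35.1% in the controls and 67.0% and 80.2% with PhenDC3. Within suppressed origins of the pair 2+3, the word share was 37.4% where a PhenDC3 peak lay within 500 bp and 60.2% where the nearest lay 2000 to 5000 bp away, and the G4 share was 55.5% and 19.3%. Beyond 10000 bp the word share was 51.2% and the G4 share 21.1%. In the pair 1+3 the G4 share was 46.4% within 500 bp and 56.9% beyond 10000 bp, and the word share 22.2% in both. Neither a G4 nor a word was found at 32.3% of suppressed and 18.7% of kept origins.

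**Figure D3:**
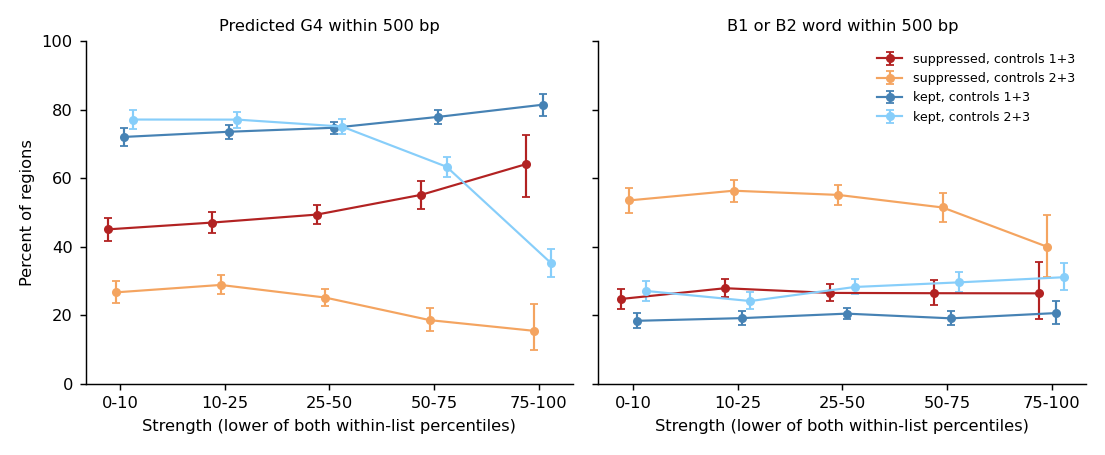
Percent of origins with a predicted G4 (left) and with a B1 or B2 word (right) in 5 bins of strength, the lower of the within-list percentiles of −log10 p, with 95% Wilson intervals. The G4 share rises with strength from 45.1% to 64.2% for suppressed origins of control replicates 1 and 3 and is lower for those of replicates 2 and 3 in all 5 bins.

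The suppressed origins were less often in promoters than the other origins with control peaks alone. The centre lay within 2 kb upstream of an annotated transcription start site (TSS) at 369 of them (5.13%, 4.64 to 5.66), beside 10.5% of other origins and 8.61% of constitutive origins, and 4.08% of kept origins. Introns held 44.8%, other exons 6.46% and intergenic DNA 43.6%, and the median distance to a TSS was 19832 bp. Of the origins found in all 3 controls without PhenDC3, 13.6% were in promoters, and of those found in control replicates 1 and 2 alone, 33.2% (differences of −8.48 points, −9.72 to −7.29, and −28.1 points, −29.3 to −26.9). The latter class also differed in sequence. CpG-island-like sequence (GC above 50% and an observed to expected CpG ratio above 0.6) covered 2.04% of suppressed origins and 41.8% of the latter class, and the GC box GGGCGG, searched on both strands within 500 bp of the centre, was at 18.02% and 58.9%, beside 33.3% of all origins. Kept origins were close to suppressed ones in CpG-island-like sequence, at 1.81% (a difference of 0.23 points, −0.16 to 0.65), and 23.6% of them had a GC box. Without control replicate 1 or 2 the rule also takes in origins present in all controls, and the promoter share was then 9.96% or 9.34%.

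Along the genome the suppressed origins made up 6.23% to 7.80% of origins on the 19 autosomes, 6.71% on chromosome X and 4.78% on chromosome Y, where there were 11. They fell in 5421 bins of 100 kb, of which 4121 held 1 and 351 held 3 or more. The densest bin, chr10:81200001-81300000, held 9 of them among 36 origins and contains Tjp3, a tight junction protein, Matk and Pip5k1c. The second, chr17:33900001-34000000, held 8 among 29 origins and covers Daxx, a histone H3.3 chaperone, Tapbp and H2-K1 of the major histocompatibility complex. The third, chr10:79800001-79900000, held 7 among 31 and contains Ptbp1, a splicing regulator, and the neutrophil protease genes Elane and Prtn3. Of these 24 origins, 9 had a G4 and 13 a B1 or B2 word. Another suppressed origin was within 7 kb of 12.5% of suppressed origins, and one was within 7 kb of 9.06% of kept origins.

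The 6 strongest suppressed origins in the promoter of an expressed gene lay upstream of Ermard, Arpc3 (a subunit of the actin-nucleating Arp2/3 complex), Pebp1 (an inhibitor of Raf kinase), Il23a (a cytokine subunit), Smim40 and Dkk3 (a secreted Dickkopf family protein). Their fold enrichment in control replicate 3 was 6.50 to 9.59. The origin of Arpc3, chr5:122389877-122390354, was centred 1762 bp before the TSS and had a B1 word. That of Pebp1, chr5:117287543-117287854, was centred 135 bp before it. For both origins the search out to 500 bp found no predicted G4, a wider span than the 200 bases printed next. Their sequences are given as above because these origins are the strongest that could be shown without an annotated exon.
Arpc3 (intergenic), chr5:122390172-122390371, plus strand, pair 2+3: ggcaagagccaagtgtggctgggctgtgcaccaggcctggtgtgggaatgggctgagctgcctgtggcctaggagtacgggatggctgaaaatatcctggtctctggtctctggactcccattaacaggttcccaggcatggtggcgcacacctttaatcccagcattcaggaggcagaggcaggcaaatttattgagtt
Pebp1 (intergenic), chr5:117287660-117287859, plus strand, pair 1+3: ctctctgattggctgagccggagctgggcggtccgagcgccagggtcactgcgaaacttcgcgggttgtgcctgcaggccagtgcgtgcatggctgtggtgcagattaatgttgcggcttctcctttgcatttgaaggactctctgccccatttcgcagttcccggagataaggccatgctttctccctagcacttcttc

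Expression of the genes next to suppressed origins was then compared between control and PhenDC3 cells. A suppressed origin was in the promoter of 371 genes, of which 262 passed the filter on low counts. The edgeR quasi-likelihood test was run on 13972 genes, with p-values adjusted by Benjamini-Hochberg across all of them, and called 36.8% of them at an adjusted p of at most 0.05. Of the 262, 58 (22.1%, Wilson interval 17.5 to 27.5) were lower with PhenDC3, where 18.7% of all genes were, and 48 (18.3%) were higher, where 18% of all genes were. By pair, 34 of 129 genes were lower for the pair 1+3 (26.4%, 19.5 to 34.6) and 26 of 135 for the pair 2+3 (19.3%, 13.5 to 26.7). Higher were 24 (18.6%) and 24 (17.8%). A gene with an origin of each pair counted in both. The median log2 fold change of the 262 was 0.01, as was that of all genes. Without PhenDC3 replicate 1 the number called lower was 35 of 268 (13.1%), where 11.4% of all genes were. A fit with same-numbered samples as blocks called 86 of the 262 lower (32.8%, 27.4 to 38.7), where 26.4% of all genes were. It called 61 higher (23.3%, 18.6 to 28.8), where 27.2% of all genes were. Per kilobase of exon, the median level of these genes in control cells was 5.79 RPKM (CPM divided by the exon length in kb) and that of all genes tested was 6.26 RPKM. In bulk RNA, fewer cells that express a gene and less RNA per cell cannot be told apart.

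Of the 262 genes, 97 passed the same threshold with a mean of 1 CPM or more and with no overlap between the 3 control and 3 PhenDC3 values, and these were 53 falls (20.2%) and 44 rises (16.8%). The same criteria were met by 17.3% of all genes tested as falls and by 16% as rises. Phlda2, an imprinted regulator of placental growth, was at 48.8, 59.4 and 57.7 CPM in the controls and at 8.19, 9.03 and 13.6 CPM with PhenDC3. Its log2 fold change was −2.42 (SE 0.20, edgeR adjusted p = 8.86e-05), and the origin was centred 1811 bp before its TSS. A PhenDC3 peak lay 334 bp from that origin. The other 7 largest falls were Cntfr (a cytokine receptor subunit), Prss50, Gngt2, Nt5e (the ectonucleotidase CD73), Hist1h1a (a linker histone), Ecscr and BC033916, with log2 fold changes from −2.60 to −1.38. Cntfr was at 3.12, 5.64 and 2.13 CPM in controls and 0.694, 0.458 and 0.617 CPM with PhenDC3. The conditions were apart in each of these genes, but Cntfr, Prss50, Nt5e, Hist1h1a and Ecscr were all below 5 CPM on average. The origin of BC033916 is the one named above under Smim40, the RefSeq symbol of the same locus.

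Tbx3, a T-box factor of the naive pluripotency network, had the highest level among the 8 largest rises. It was at 116, 131 and 92.4 CPM in the controls and 403, 441 and 354 CPM with PhenDC3, a log2 fold change of 1.82 (SE 0.16, edgeR adjusted p = 9.95e-05). Its origin, chr5:119670813-119671091, was centred 281 bp before the TSS, with 5.90-fold enrichment in control replicate 1 and 6.44-fold in replicate 3, and the nearest PhenDC3 peak was 3111 bp away. Ptges, a prostaglandin E synthase, was at 6.56, 5.55 and 5.42 CPM and at 21.1, 26.3 and 22.4 CPM, a log2 fold change of 1.99 (SE 0.15, edgeR adjusted p = 7.43e-05). Its origin was 103 bp from a PhenDC3 peak. Slco2a1, a prostaglandin transporter, was at 7.68, 7.05 and 18.9 CPM and at 26.2, 27.3 and 50.4 CPM, with replicate 3 the highest in both conditions. The others of these rises were Ggt7, Gm8994, Trpv4 (a cation channel), Ttll3 (a tubulin ligase) and Bcl9l (a β-catenin coactivator), and all 8 had log2 fold changes from 1.59 to 2.73. Among the genes named as falls or rises, Ptges and Phlda2 were not alone in having a PhenDC3 peak within 500 bp of the origin. It was 105 bp away for Cntfr, 112 for Hist1h1a, 139 for Slco2a1, 147 for Nt5e and 325 for Ttll3. For the rest it was 532 to 4082 bp away.

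**Figure D4:**
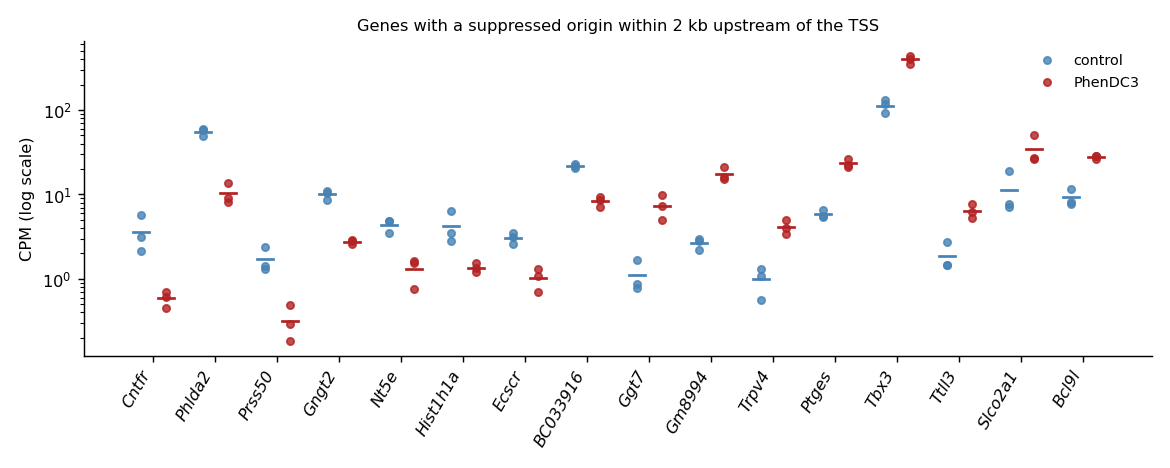
CPM on a log scale in each of 3 control and 3 PhenDC3 samples (points, with the mean as a line) for the 8 largest falls and 8 largest rises among genes with a suppressed origin within 2 kb upstream of the TSS. The conditions do not overlap in any of the 16, which was a condition for naming them.

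A suppressed origin was in the promoter of 1.42% of the 26180 annotated genes. Tbx3 was the 1 gene of 20 for pluripotency with a suppressed origin in its promoter. None of 31 genes for origin licensing and firing had one, nor any of 12 G4 helicases or 12 p53 targets. An origin of any class was in the promoter of 6 of the 31, of 9 of the 20 pluripotency genes, of 3 of the 12 helicases and of 4 of the 12 p53 targets. The share of all annotated genes with an origin of any class was not counted. Beside the 18.7% of all genes called lower and 18% called higher, 7 of the 20 pluripotency genes were lower and 7 higher, and of the 31 licensing and firing genes 8 were lower and 1 was higher. Of the 11 p53 targets tested, 8 were higher. Of the 12 helicases 0 were called by edgeR in either direction, where 36.8% of all genes were. An unadjusted p under 0.05 was found for 5, and the share of all genes at that level was not counted. DESeq2 called 3 of the 12, where it called 16.9% of all genes lower and 16.2% higher.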

How the data were processed

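SNS-seq peak lists (3 control, 2 PhenDC3) and RNA-seq gene counts (3 and 3) were used. The authors mapped SNS-seq reads to mm10 with Bowtie2 2.2.5 and called narrow peaks per replicate with MACS2 2.1.0 against RNase-treated nascent strands, keeping peaks that overlapped a SICER domain. The deposited lists give each peak's fold enrichment (a ratio), its −log10 p, a score of 10 times that value that was not used, and the summit offset. The authors' raw counts per gene (TopHat2 2.1.1, HTSeq 0.6.1p1) were used as deposited, and their normalized counts and their own comparison (fold changes and p-values) were not. Depth of the peak lists is unknown.

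Peaks on 21 nuclear chromosomes were merged at 1 bp of overlap. G4s were predicted on the mm10 reference with G4Hunter, and promoters taken from 45756 curated RefSeq transcripts. RNA-seq was tested with edgeR 4.0.16 (quasi-likelihood, relative log expression scaling, filterByExpr, threshold 0.05) in R 4.3.3, and with DESeq2 1.42.0 as an alternative. RPKM used the union of RefSeq exons. Strand handling in the authors' counting is not given in the sources used here, so overlapping genes are uncertain. The region and test code was checked on simulated data. Shares carry Wilson and differences Newcombe 95% intervals, for counting error only.

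Members, gene lists and words were chosen with earlier results of these data known. Named were the 8 strongest origins, the 6 strongest in promoters of genes at 1 CPM or more, the 8 largest falls and rises without overlap between conditions, listed genes with an origin in the promoter, and the 3 densest 100-kb bins. Printed windows avoid annotated exons. The sequence of 1 origin is not reported here. Alternatives were other overlaps, peak thresholds, G4 calls, distances, promoter windows, words, count models and leaving out each library in turn except control SNS-seq replicate 3.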

Additional observations from a re-analysis of the deposited data

How the results depend on the processing

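No difference in G4 or word share changed sign under any alternative run, but sizes moved, and the cause was not tested. In this order, the values that follow are the G4 share of suppressed origins in percent, then its difference in points from constitutive origins and from kept origins, and the difference of the pair 1+3 from the pair 2+3. They were 55.9, −19.2, −20.7 and 31.5 with peaks above each list's median −log10 p, 44.1, −33.3, −32.7 and 17.8 with an equal number of strongest peaks per list, 64.2, −27.6, −25.3 and 20.5 at a G4Hunter threshold of 1.5, 18.9, −20.6, −19.7 and 8.91 within 250 bp, and 60.9, −23.3, −22.8 and 36.8 within 1000 bp. Quadparser gave 34.3, −37.7 and −32.7. Where a PhenDC3 peak within 500 bp counted as present, the G4 share was 34.1, the difference from constitutive origins −43.3 and that between pairs 30.1.

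The number of suppressed origins was 4471 with peaks above the median. Their share with a B1 or B2 word was then 29.1%, 8.003 points over kept origins, and the pairs differed by −14.3 points. With an equal number of peaks the word share was 37.9% and the pairs differed by −20.3, and with PhenDC3 peaks within 500 bp counted it was 44.0%, 20.6 points over kept origins. Other words of the same elements, CCCAGCAC and GAGCCATC, which overlap the main ones, gave 42.1% and 18.6 points. Within 250 bp the word share was 22.6%, 10.0 points over kept origins, and the pairs differed by −20.5. These word alternatives were chosen after seeing the data. The promoter share was 4.44% with PhenDC3 peaks within 500 bp counted, 9.54% for 2 kb on both sides of the TSS and 2.77% for 1 kb upstream.

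Control replicate 3 was not left out, since the rule rests on it. Leaving out each other SNS-seq library in turn gave 7412 to 10956 suppressed origins, the most without PhenDC3 replicate 2. Without a PhenDC3 library the rule also takes in origins with a peak in that library alone, which the main rule counts as kept. A larger set with a G4 share nearer that of kept origins was therefore built into those runs. The G4 share was 40.1% to 50.6%, its difference from constitutive origins −38.9 to −27.0, and from kept origins −35.8 to −24.9. The word share was 27.5% to 40.4%, its excess over kept origins 7.81 to 19.6, lowest without control replicate 2. Both pairs remain only when a PhenDC3 library is left out, and their difference was then 16.9 to 26.7 points for G4s and −27.7 to −19.8 for words. The promoter share was 4.80% to 9.96%.

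Leaving out 1 RNA-seq library gave 1623 to 2727 genes lower and 1709 to 2689 higher, and 35 to 58 lower and 32 to 44 higher among genes with a suppressed origin in the promoter. Of these promoter genes 13.1% to 21.6% were lower, where 11.4% to 19.1% of all genes were. Higher were 11.9% to 16.4% of them, where 12.0% to 18.9% of all genes were. Both lowest counts of lower genes, 1623 and 35, were without PhenDC3 replicate 1. With promoters of 2 kb on both sides 509 genes were tested. Of these 109 were lower (21.4%, 18.1 to 25.2), where 18.7% of all genes were, and 84 were higher (16.5%), where 18% were. Deviations of same-numbered RNA-seq samples from their group mean correlated at 0.09, 0.54 and 0.41, all positive. The labels do not say that equal numbers were pairs, and the main fit used no block. Whether same-numbered samples shared an effect was not tested. With a replicate block 3692 genes were lower and 3797 higher, where the fit without it gave 2617 and 2518. With the block 86 of the 262 genes with a suppressed origin in the promoter were lower (32.8%, 27.4 to 38.7), where 26.4% of all genes were, and 61 were higher (23.3%), where 27.2% were. The peak lists gave no test in which a block could be used. With DESeq2, TMM scaling or no filter on low counts these counts stayed within 1.5 times. The depth of the peak lists, which held 79377 to 144103 peaks, is unknown, and how far it decided which origins were called suppressed was not tested.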
